A study of Rattus norvegicus with 6 samples.

Results

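Actins and tubulins were followed in the costal diaphragm of 3 diabetic and 3 normal rats, with 1 Affymetrix rat expression array per rat. The genes were Actb, Actg1, Acta1, Actc1, Tuba1a, Tuba1b, Tubb2a and Tubb5. Probe sets were kept where the platform annotation gives them to 1 of these 8 genes alone, and the 3 control probe sets for rat β-actin were added, which made 8 of the 15923 probe sets on the array. Only 4 of the 8 genes had a probe set of their own: Acta1, Actg1 and Tubb2a had 1 each and Tubb5 had 2. With Actb, read by its control sets, 5 of the 10411 genes named on the array could be followed one by one. Otherwise Actb, Actc1, Tuba1a and Tuba1b are carried by 6 probe sets that each match several genes, 3 of them Actc1 with Acta2, and no level of a single gene could be read from those sets. They are given below under the names of all the genes they match.

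Both groups were male Wistar rats injected at 8 weeks of age and sampled 4 weeks later after an overnight fast. The diabetic group received 60 mg/kg of streptozotocin, a chemical that destroys pancreatic beta cells, and no insulin afterwards. The normal group received the citrate buffer alone. Tissue of the left costal hemidiaphragm was used, so each value is that of a mixture of muscle fibres, vessels, connective tissue and nerve. Fewer cells of a type and less RNA per cell cannot be told apart in such samples. All 10 marker genes of skeletal muscle fibres, Acta1 among them, were on the array. Of these, limma called 2 lower and none higher in diabetic muscle at an adjusted p under 0.05. Over all genes tested, 3.55% were called lower and 3.46% higher. The other 8 markers were not called, with 9 of 10 log2 fold changes below 0 and a median of -0.18. Myh4, the myosin heavy chain of the fastest fibres, was 3.44-fold lower (adjusted p = 0.0017), and Mb, the oxygen-binding myoglobin, was 1.47-fold lower (adjusted p = 0.039). The part of fibre content in the actin and tubulin signals was not tested. The summed signal of the 10 markers, Acta1 included, was 156744 to 219165 in diabetic and 193397 to 224292 in normal muscle. The lowest signal of any of them on any array was 1678, for Myh4.

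The deposited values are MAS 5.0 signals, which are fluorescence intensities on a linear scale. The median signal of an array lay between 167.1 and 180.5. Diabetic replicate 3, normal replicate 3 and normal replicate 2 stood apart in ways that touch these genes. The spiked bacterial transcripts reached 1.92 on diabetic replicate 3, as a median over 18 probe sets of the signal over its geometric mean across arrays, and 0.799 to 0.959 on the other 5 arrays. Normal replicate 3 gave the highest signal in all 6 control probe sets of β-actin and GAPDH. Normal replicate 2 had the highest ratio of 3′ to 5′ signal for both control transcripts, at 2.27 for β-actin and 4.02 for GAPDH. This ratio is higher where RNA is less intact. On the other 5 arrays these ratios were 1.17 to 1.71 for β-actin and 1.27 to 3.997 for GAPDH, where 3.997 was that of diabetic replicate 3. Diabetic replicate 3 also had the highest ratio of 3′ to middle signal for β-actin, at 3.09. On most arrays the 3′ to 5′ ratios of both transcripts lie above the ranges that the paper reports for them. The highest 3′ to middle ratio of β-actin also lies above its reported range. The paper gives RNA integrity numbers from a Bioanalyzer as well, which were not compared here. Values without single arrays are given beside the results that they move most.

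Actin filaments are polymers of a small globular protein whose isoforms are nearly identical in sequence but are made in different cells. Acta1 encodes the skeletal muscle form of the sarcomeric thin filament, Actc1 the cardiac form, which skeletal muscle makes mainly before birth and in regeneration, and Acta2 the form of vascular smooth muscle. Actb and Actg1 encode the cytoplasmic β- and γ-actins found in nearly all cells. Microtubules are built from dimers of α-tubulin, here Tuba1a and Tuba1b, and β-tubulin, here Tubb2a and Tubb5. Because actins and tubulins are abundant in most tissues, their genes are often used as internal references in PCR and blotting, and β-actin had that place in the PCR measurements made on these same muscles.

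Of the 8 genes, 7 had an entry in the RefSeq promoter set (build GRCr8), and the 150 bases before the annotated start are shown for the 4 genes with probe sets of their own, since the array values below belong to these genes. Capitals mark each match, on either strand, to the CArG box (2 C, 6 bases that are A or T, then 2 G), to TATAAA or to CCAAT. The CArG box is the binding motif of serum response factor, a regulator of actin genes.
Acta1, chr19:68784195-68784344, minus strand: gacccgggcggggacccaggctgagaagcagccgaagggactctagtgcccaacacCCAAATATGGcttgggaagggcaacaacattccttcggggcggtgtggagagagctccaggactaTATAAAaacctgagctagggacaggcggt
Actg1, chr10:106120952-106121101, minus strand: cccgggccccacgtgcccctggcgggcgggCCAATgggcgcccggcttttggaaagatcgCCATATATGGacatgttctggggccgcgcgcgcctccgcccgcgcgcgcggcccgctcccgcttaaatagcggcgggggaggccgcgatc
Tubb2a, chr17:31002036-31002185, plus strand: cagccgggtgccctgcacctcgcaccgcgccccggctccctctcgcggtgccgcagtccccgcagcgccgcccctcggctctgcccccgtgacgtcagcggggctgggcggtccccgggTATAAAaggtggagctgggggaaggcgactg
Tubb5, chr20:2917427-2917576, plus strand: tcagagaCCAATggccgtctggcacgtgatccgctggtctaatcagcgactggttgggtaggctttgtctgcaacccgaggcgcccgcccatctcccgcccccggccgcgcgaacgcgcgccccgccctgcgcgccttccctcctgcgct
A CArG match began 94 bases before the start of Acta1 and 90 bases before that of Actg1. No other gene of the 7 had one in this window, and 0.878% of 33469 promoters did. TATAAA was found in Acta1 and Tubb2a (8.0% of all promoters) and CCAAT in Actg1, Tuba1b and Tubb5 (23.5%). These matches are descriptions of the sequence only.

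None of the 5 actin and tubulin probe sets with 1 gene passed limma's moderated test at an adjusted p under 0.05, against 6.78% of the 9519 probe sets tested (3.3% higher and 3.48% lower in diabetic muscle). At an unadjusted p under 0.05 there were 2 of the 5, Tubb5 in its brighter probe set, which lay higher, and Tubb2a, which lay lower, while 23.9% of all probe sets reached that level. The median log2 fold change of the 5 was -0.056, against 0.0034 over all probe sets tested. In 1 of the 5, the brighter set of Tubb5, the groups did not overlap, against 29.6% of all probe sets. The members thus differed in sign among themselves, with 3 log2 fold changes below 0 and 2 above.

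**Figure D1:**
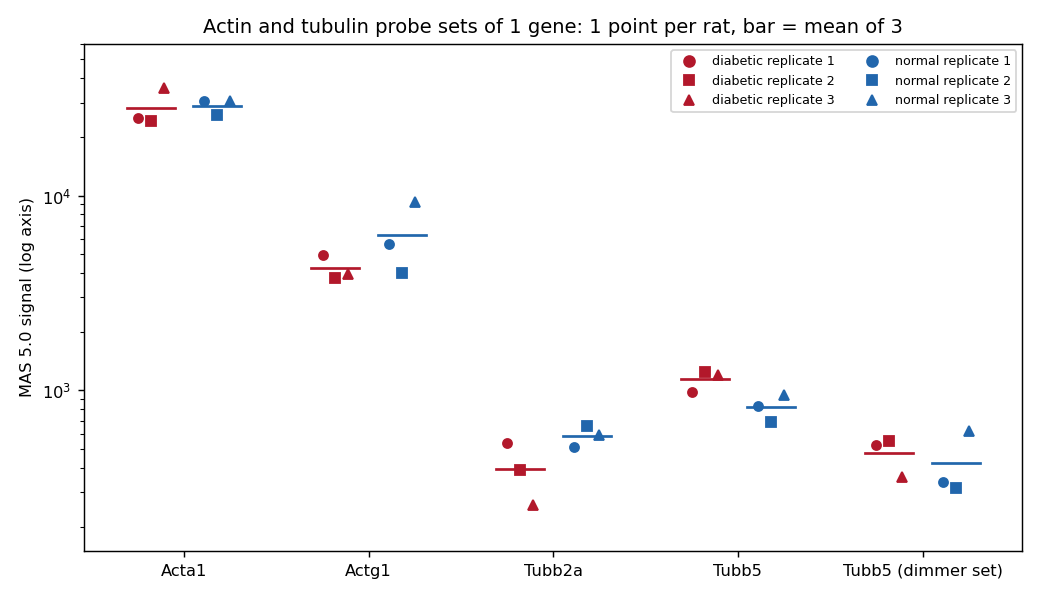
MAS 5.0 signal on a log axis for the 5 probe sets with 1 gene. Each point is 1 rat (diabetic red, at left; normal blue, at right) and each bar is the mean of 3. Only in the brighter set of Tubb5 do all 3 diabetic muscles (979 to 1242) lie above all 3 normal muscles (692 to 952).

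Acta1, the actin of the skeletal muscle thin filament, had signals of 24955, 24045 and 35669 in diabetic muscle, against 30425, 25835 and 30605 in normal muscle. Diabetic replicate 3 was the highest of the 6 arrays and the other diabetic muscles were the lowest, so that the groups overlapped. The ratio of group means was 0.975. The log2 fold change was -0.056 (standard error, SE, 0.17, 95% interval -0.43 to 0.32, limma, adjusted p = 0.88), which turned to 0.019 after quantile normalization and was -0.24 without diabetic replicate 3 (adjusted p = 0.34). The interval leaves room for a change of either sign. The coefficient of variation was 22.9% among diabetic and 9.34% among normal muscles.

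Actg1, the cytoplasmic γ-actin, had signals of 4971, 3779 and 3973 in diabetic muscle, against 5634, 3982 and 9320 in normal muscle. Normal replicate 3 stood far above the rest, and normal replicate 2 lay among the diabetic muscles. The mean was 4241 ± 640 in diabetic and 6312 ± 2733 in normal muscle (SD, n = 3 each). The log2 fold change of -0.50 (SE 0.27, 95% interval -1.08 to 0.09) did not pass (limma, adjusted p = 0.29), and single arrays moved it both ways. It was -0.17 without normal replicate 3 (adjusted p = 0.70) and -0.78 without normal replicate 2 (adjusted p = 0.088).

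The β-actin control probe sets read the same transcript at its 3′ end, in its middle and near its 5′ end. At the 3′ end the signals were 8002, 8518 and 7469 in diabetic muscle, against 9305, 8752 and 13360 in normal muscle. All 3 diabetic arrays lay below all 3 normal arrays, the nearest of them 8518 in diabetic and 8752 in normal muscle, and 14.4% of the probe sets tested were separated in that direction. The difference of mean log2 signal was -0.37 (2-sided exact permutation p = 0.1, and no smaller p is possible with 3 rats in each group). It was -0.18 without normal replicate 3. With the control probe sets added to the limma fit the adjusted p was 0.23, and the diabetic and normal arrays did overlap after quantile normalization (difference -0.33, exact permutation p = 0.3).

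Away from the 3′ end the β-actin signals overlapped between groups. The middle probe set gave 3684, 4524 and 2416 in diabetic muscle, against 5158, 3339 and 7685 in normal muscle (difference of mean log2 signal -0.57, exact permutation p = 0.3), and the difference was -0.28 without normal replicate 3 and -0.88 without normal replicate 2. The 5′ probe set gave 4667, 7262 and 4419 in diabetic muscle, against 6309, 3852 and 9673 in normal muscle (difference -0.22, exact permutation p = 0.7). The 5′ difference turned to 0.11 without normal replicate 3 and was -0.56 without normal replicate 2. The coefficient of variation over the 6 arrays was 22.9% at the 3′ end, 41.2% in the middle and 36.4% at the 5′ end. The ratio of the 3′ to the middle signal was 2.17, 1.88 and 3.09 in diabetic muscle, against 1.80, 2.62 and 1.74 in normal muscle, so the position along the transcript altered the array-to-array pattern of the same gene. The part of RNA integrity in the β-actin values was not tested.

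**Figure D2:**
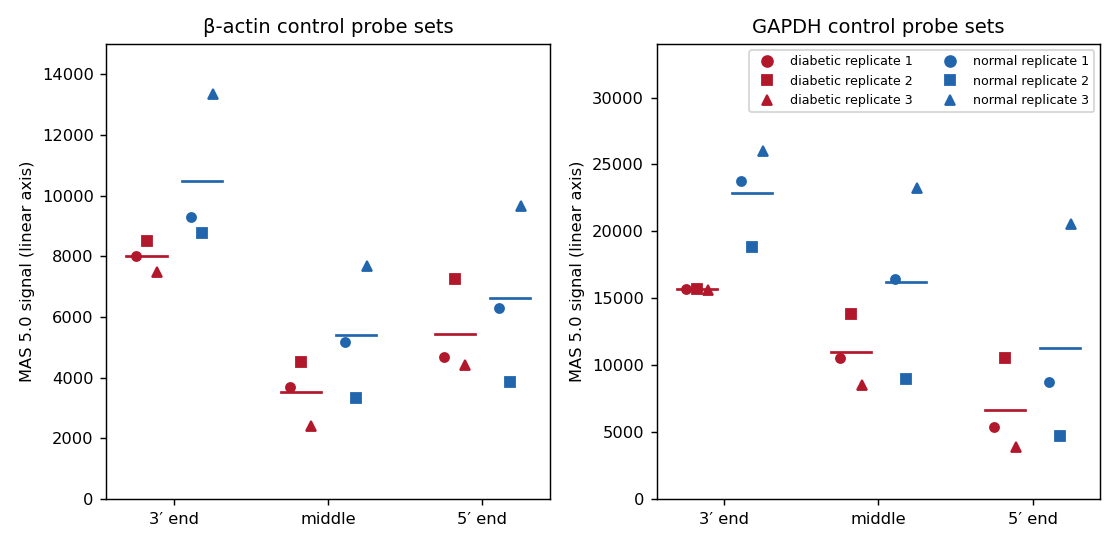
MAS 5.0 signal on a linear axis for the control probe sets of β-actin (left) and GAPDH (right) at the 3′ end, middle and 5′ end of each transcript. Points are single rats, diabetic at the left and normal at the right of each pair, and bars are means of 3. The groups are apart at both 3′ ends (β-actin 7469 to 8518 in diabetic and 8752 to 13360 in normal muscle) and overlap at the other positions.

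The 2 probe sets that match Actb, Actg1 and the related gene Actg1l1 had log2 fold changes near that of Actg1. In one, the signals were 3641, 5771 and 4285 in diabetic muscle, against 6490, 5335 and 7701 in normal muscle (log2 fold change -0.52, SE 0.20, 95% interval -0.96 to -0.08, limma, adjusted p = 0.14). In the other they were 5644, 6418 and 4097 in diabetic muscle, against 7816, 5916 and 9362 in normal muscle (log2 fold change -0.51, SE 0.21, adjusted p = 0.17). In both, diabetic replicate 2 lay above normal replicate 2, so the groups overlapped. These sets share probe targets with each other and with the controls and are not independent readings of β-actin.

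Cytoplasmic actins are made by the connective tissue, vessel and immune cells of the muscle as well as by its fibres. Of 8 fibroblast markers tested, 5 were lower in diabetic muscle, none was higher and 3 did not pass, while 3.55% of all genes tested were called lower. The 3 were Dcn, Pdgfra and Postn, with log2 fold changes of -0.11, -0.34 and 0.0062. The summed signal of the 9 fibroblast markers on the array was 23243 to 24656 in diabetic and 45742 to 50471 in normal muscle. None of these markers was listed at 0, and Thy1 alone lay under the filter level. The list holds collagens and Fbn1, which the study selected on these same arrays, so neither its count nor its sum is independent evidence of direction. Of 6 endothelial markers 1, Kdr, was higher (limma, adjusted p = 0.046), and the sum of the 6 was 5556 to 6191 in diabetic and 4873 to 4980 in normal muscle. Kdr itself had signals of 1418, 1525 and 1801 in diabetic muscle, against 828, 1096 and 1083 in normal muscle. The other 5 did not pass, and in each of them the groups overlapped. Of 8 macrophage and leukocyte markers tested none passed, with 3 log2 fold changes below 0 and 5 above. The sum of the 9 on the array was 6996 to 9413 in diabetic and 8662 to 9976 in normal muscle. Aif1 alone lay under the filter level and was not tested. Its signals were 32.2, 59.0 and 34.6 in diabetic muscle, against 88.3, 95.8 and 116.2 in normal muscle, with no overlap. The part of these cells in the actin signals was not tested.

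Actc1 could be read only together with Acta2, in 3 probe sets. In the brightest, the signals were 590, 586 and 942 in diabetic muscle, against 1130, 1194 and 1209 in normal muscle, with no overlap. This probe set fell by 0.78 on the log2 scale (SE 0.20, limma, adjusted p = 0.045). The next gave 467, 460 and 513 in diabetic muscle, against 646, 743 and 1000 in normal muscle, again with no overlap, and fell by 0.71 (SE 0.19, adjusted p = 0.049). The dimmest gave 134, 145 and 403 in diabetic muscle, against 355, 353 and 383 in normal muscle, where diabetic replicate 3 was the highest of all arrays (log2 fold change -0.87, SE 0.36, adjusted p = 0.17). Without that array the dimmest probe set passed (log2 fold change -1.38, adjusted p = 0.0081).

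Acta2, smooth muscle α-actin, has a probe set of its own, with signals of 381, 324 and 374 in diabetic muscle, against 586, 507 and 548 in normal muscle. The groups were far apart for their spread, at 359 ± 30.8 in diabetic and 547 ± 39.5 in normal muscle (SD, n = 3 each). It fell by 0.61 on the log2 scale (SE 0.16, limma, adjusted p = 0.049). When single arrays were omitted, Acta2 and the second of the shared sets passed in 0 of 6 cases and the brightest shared set in 1 of 6 (highest adjusted p = 0.15, 0.13 and 0.14). All 3 calls were also lost without the filter on dim probe sets, without the variance trend and with the replicate block (adjusted p = 0.065 to 0.091 for Acta2, 0.072 to 0.074 for the brightest shared set and 0.075 to 0.078 for the second). After scaling to the same median Acta2 and the brightest shared set did not pass (adjusted p = 0.065 and 0.059), nor did the second with array weights (0.057). These calls thus lie at the threshold. Whether Actc1 contributed to the shared sets cannot be told apart from Acta2. Of 9 smooth muscle and pericyte markers tested, Acta2 included, 3 were lower, none was higher and 6 did not pass, with 8 of 9 log2 fold changes below 0 and a median of -0.37. The lower ones besides Acta2 were Smtn, a smooth muscle actin-binding protein (log2 fold change -1.09, adjusted p = 0.049), and Rgs5, a pericyte regulator of G protein signalling (-0.93, adjusted p = 0.011). Smtn had normal signals of 636, 502 and 1161, the last on normal replicate 3. Among the 6 that did not pass, Lmod1, the smooth muscle leiomodin, was at -0.92 (adjusted p = 0.068). Myh11 was at -0.058 (adjusted p = 0.87) and Pdgfrb, the only one above 0, at 0.22 (adjusted p = 0.58). The summed signal was 12035 to 14805 in diabetic and 12190 to 17929 in normal muscle, but most of it came from Des, which muscle fibres express too. Leaving out Des was not part of the plan. Without it the sum of the other 9 markers on the array was 2727 to 3436 in diabetic and 4130 to 4691 in normal muscle, with no overlap. This sum includes Acta2, so it is not independent of the Acta2 result. Of this list Cnn1 alone lay under the filter level. The part of smooth muscle cells in the shared signal was not tested.

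**Figure D3:**
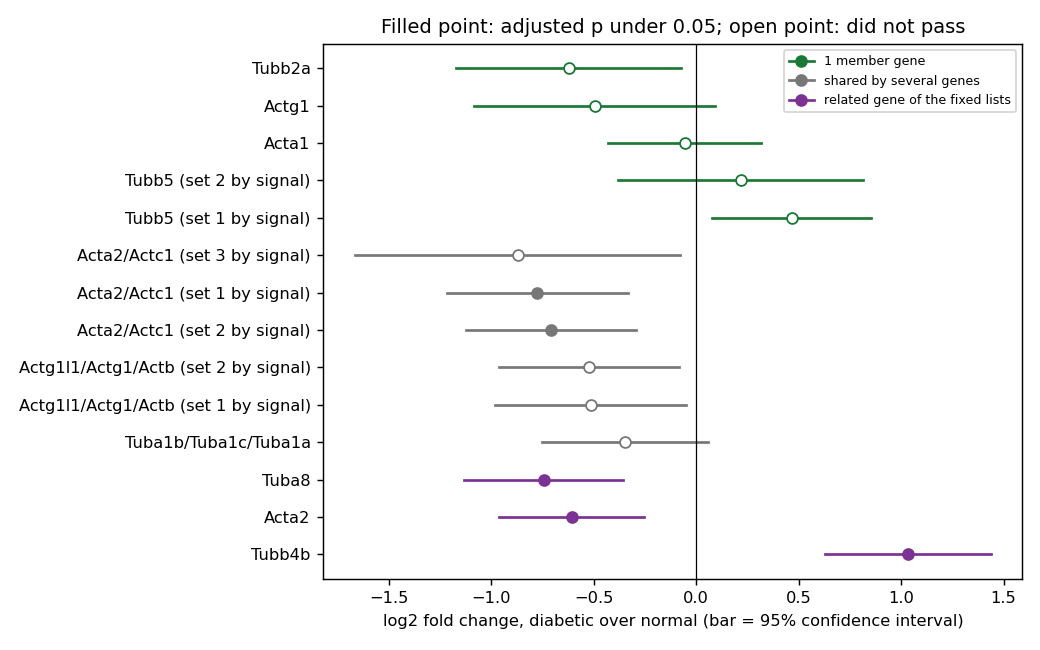
Log2 fold change, diabetic over normal, with its 95% confidence interval from limma for the 5 probe sets with 1 member gene (green), the 6 shared probe sets (grey) and 3 related genes (purple). Filled points passed at an adjusted p under 0.05. The green points are all open, from -0.62 for Tubb2a to 0.47 for Tubb5, while the filled points are those of 2 Acta2/Actc1 sets, Tuba8, Acta2 and Tubb4b.

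Among the β-tubulins, Tubb5, a form made in most cells, had signals of 979, 1242 and 1195 in diabetic muscle, against 836, 692 and 952 in normal muscle in its brighter probe set. Every diabetic muscle was above every normal muscle, as in 15.2% of the probe sets tested. The mean was 1139 ± 141 in diabetic and 826.7 ± 130.4 in normal muscle (SD, n = 3 each), a ratio of 1.38. The log2 fold change of 0.47 (SE 0.18, 95% interval 0.08 to 0.85) did not pass after adjustment (limma, adjusted p = 0.14). The dimmer probe set gave 525, 547 and 359 in diabetic muscle, against 338, 316 and 616 in normal muscle, with overlap (log2 fold change 0.22, SE 0.27, adjusted p = 0.67). Normal replicate 3, the highest of the 6, set this value, which was 0.52 without it (adjusted p = 0.24) and 0.040 without normal replicate 2.

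Tubb2a, a β-tubulin best known from neurons, had signals of 534, 392 and 258 in diabetic muscle, against 511, 657 and 587 in normal muscle. Diabetic replicate 1 lay above normal replicate 1, and the other diabetic muscles lay below all normal ones. The log2 fold change was -0.62 (SE 0.25, 95% interval -1.17 to -0.07, limma, adjusted p = 0.16), and -0.35 without diabetic replicate 3 (adjusted p = 0.38). The α-tubulins Tuba1a, Tuba1b and Tuba1c share 1 probe set, with signals of 3367, 4055 and 3325 in diabetic muscle, against 4621, 3582 and 5659 in normal muscle (log2 fold change -0.35, SE 0.18, adjusted p = 0.28). Here too the groups overlapped through diabetic replicate 2 and normal replicate 2.

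Other tubulins of a fixed list showed differences that did pass. Tubb4b, a β-tubulin of many tissues, had signals of 5337, 7044 and 6555 in diabetic muscle, against 2417, 3353 and 3550 in normal muscle, with no overlap. It rose 2.03-fold (log2 fold change 1.03, SE 0.18, limma, adjusted p = 0.0099) and passed whichever of the 6 arrays was omitted. The study had picked this gene out on these same arrays, so its direction is not independent evidence. A probe set that matches both Tubb4b and C7, a complement gene, had signals of 1947, 3332 and 2132 in diabetic muscle, against 2748, 3441 and 3070 in normal muscle (log2 fold change -0.36, adjusted p = 0.32), and did not follow the Tubb4b set. Tuba8, an α-tubulin enriched in striated muscle, had signals of 1489, 1751 and 1302 in diabetic muscle, against 2313, 2269 and 3045 in normal muscle, and fell by 0.74 on the log2 scale (SE 0.18, adjusted p = 0.032). When single arrays were omitted it passed 1 time in 6 (highest adjusted p = 0.099), and it did not pass without the filter, without the trend or with the replicate block (adjusted p = 0.051, 0.061 and 0.088). The other 5 of the 7 genes tested from this list did not pass. Among them were Tubgcp2 and Tubgcp4, which encode proteins of the γ-tubulin complex and not tubulins. The median of the 7 was 0.10 on the log2 scale, against 0.0080 over the 7080 genes tested, of which 3.46% were called higher and 3.55% lower.

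Differences between members were also formed within each array, which removes the scaling of the array. Of 6 pairs planned, 4 could be formed, with the 3′ control set standing for Actb. The log2 ratio of Tubb2a to Tubb5 was -0.87, -1.66 and -2.21 in diabetic muscle, against -0.71, -0.075 and -0.70 in normal muscle. The groups did not overlap, and the ratio was 0.470 times as high in diabetic as in normal muscle (difference -1.09, 2-sided exact permutation test, p = 0.1, p = 0.2 after Benjamini-Hochberg adjustment over the 4 pairs). The log2 ratio of Tubb5 to β-actin was -3.03, -2.78 and -2.64 in diabetic muscle, against -3.48, -3.66 and -3.81 in normal muscle, again with no overlap, and the ratio was 1.78 times as high (difference 0.83, exact permutation p = 0.1, adjusted p = 0.2). Both kept their sign whichever array was omitted. The other two overlapped: the difference was 0.31 for Acta1 over β-actin (exact permutation p = 0.5; 0.080 without diabetic replicate 3), and -0.13 for Actg1 over β-actin (exact permutation p = 0.7). None of the 4 pairs passed, but this test gives no p under 0.1 with 3 rats in each group. It therefore could not decide whether the genes of a pair changed unequally.

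The paper reports that β-actin varied very little among its samples and gives this as the reason for choosing it in PCR. Array signal and PCR are different measures, and no PCR value was compared here. The use of β-actin as a reference raises the question of how steady its array signal was beside that of other genes in common use. Over 18 such probe sets, Polr2a, a subunit of RNA polymerase, varied least, with a coefficient of variation of 2.68% over the 6 arrays, followed by Hprt1, a purine salvage enzyme, at 5.55%, and B2m, the light chain of class I histocompatibility molecules, at 8.96%. Acta1 ranked 8 at 15.6%, Tubb5 ranked 11 at 21.3%, the β-actin 3′ control ranked 12 at 22.9%, the GAPDH 3′ control ranked 15 at 23.8% and Actg1 ranked 17 at 39.9%. The median over all genes tested was 18.6%. The place of the actins in this order rested on normal replicate 3, as was seen after the data were examined. Without that array the β-actin 3′ control had a coefficient of variation of 8.37% and ranked 3, and Actg1 had 17.9% and ranked 11, while Tubb5 ranked 16 at 23.6%, the GAPDH 3′ control 15 at 19.7% and Acta1 10 at 17.2%. With any other array omitted the β-actin 3′ control had 22.5% to 25.7%. Polr2a and Hprt1 kept places 1 and 2 without normal replicate 3, at 2.56% and 6.21%. Tfrc, the transferrin receptor, varied most, at 125%, and its signal on normal replicate 3 was 7196, against 377 to 1567 on the other arrays, over which it varied by 48.0%.

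Polr2a had signals of 329, 329 and 328 in diabetic muscle, against 335, 348 and 323 in normal muscle (log2 fold change -0.029, limma, adjusted p = 0.93). Hprt1 had 2274, 2017 and 2273 in diabetic muscle, against 1999, 2142 and 2152 in normal muscle (log2 fold change 0.060, adjusted p = 0.84). In both genes the groups overlapped. Of the 14 listed reference genes tested, 1 was lower, none was higher and 13 did not pass, with a median log2 fold change of -0.0037. The one that fell was Pgk1, a glycolytic enzyme, with signals of 6257, 5714 and 6085 in diabetic muscle, against 10064, 10489 and 11188 in normal muscle (1.76-fold lower, adjusted p = 0.0059). The GAPDH 3′ control, another glycolytic enzyme, gave 15694, 15699 and 15597 in diabetic muscle, against 23744, 18826 and 26038 in normal muscle, with no overlap (exact permutation p = 0.1). Within each group the spread of the β-actin 3′ signal was unequal, with a coefficient of variation of 6.56% in diabetic and 24.0% in normal muscle.

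**Figure D4:**
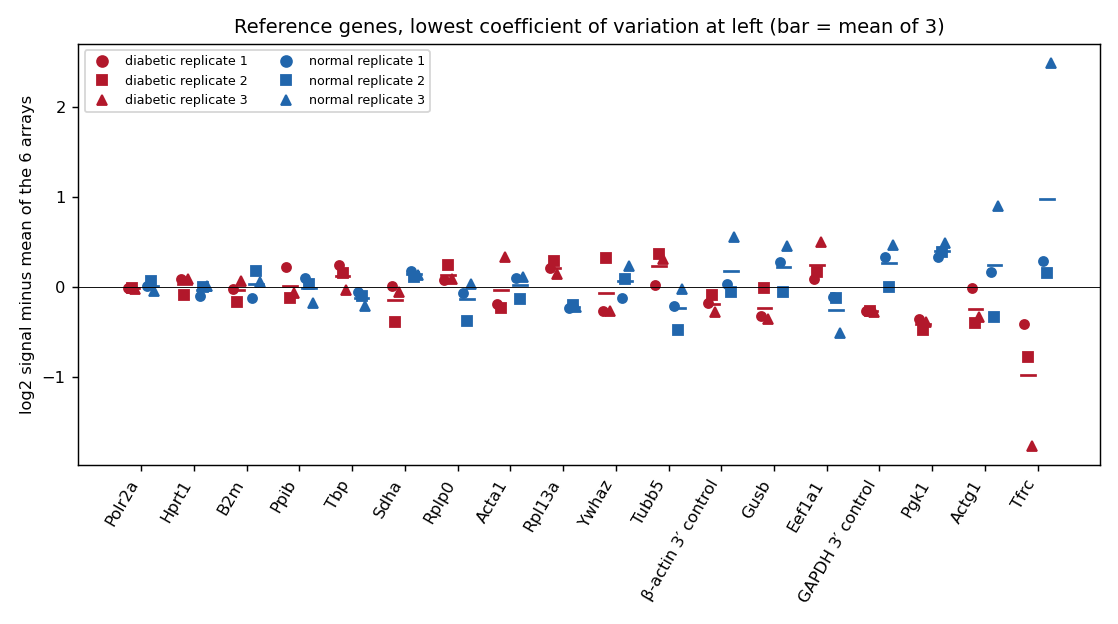
Log2 signal of each reference probe set minus its own mean over the 6 arrays, ordered by coefficient of variation from the lowest at left (Polr2a, 2.68%) to the highest at right (Tfrc, 125%). Points are single rats, diabetic at the left and normal at the right of each pair, and bars are means of 3. The β-actin 3′ control, in position 12 of 18, has its diabetic points below its normal points, and moves to position 3 (8.37%) without normal replicate 3.

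The choice of reference changed the balance of calls over the whole array. With the signals as deposited, 314 probe sets were higher and 331 lower. Division of every array by its own β-actin 3′ signal, a step added after the data were seen, gave 762 higher and 91 lower, and moved the median log2 fold change of all probe sets to 0.37. Division by the GAPDH 3′ signal gave 3496 higher and 103 lower, with a median of 0.54. Division by Actg1 gave 153 higher and 20 lower (median 0.50). Acta1 moved the balance least among the references tried, with 228 higher and 166 lower and a median of 0.060. Division by Tubb5 turned the balance the other way, with 87 higher and 1981 lower and a median of -0.46. The shift of the median equals the difference of the reference between groups, by construction, but the counts did not follow the shift alone. Division by Actg1 moved the median more than division by β-actin 3′ and gave fewer calls. These counts were not repeated with single arrays omitted, although the β-actin and Actg1 differences depended on normal replicate 3.

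**Figure D5:**
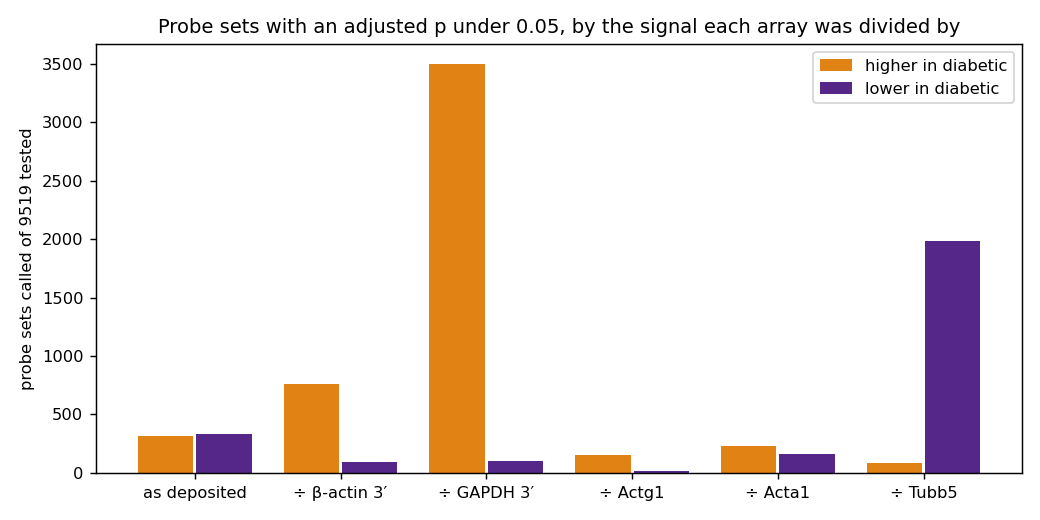
Number of probe sets, of 9519 tested, with an adjusted p under 0.05 that were higher (orange) or lower (violet) in diabetic muscle, with the signals as deposited and after each array was divided by its own signal of 1 reference. The bars show 314 higher and 331 lower with the signals as deposited, 762 and 91 after division by β-actin 3′, and 87 and 1981 after division by Tubb5.

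Around the members, 7 fixed lists of genes that build, fold, bind or regulate actin filaments and microtubules held 129 tested genes. Of these 4 were higher (3.1%), 4 were lower (3.1%) and 121 did not pass, beside 3.46% and 3.55% of all genes tested. The share called was thus near that of the array as a whole. The median log2 fold change was -0.068.

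Of 20 thin filament genes of the sarcomere, the structure to which Acta1 belongs, 1 was higher and 1 lower, and the median was -0.21, with 14 values below 0. Lmod3, a leiomodin that nucleates and lengthens thin filaments, had signals of 878, 826 and 965 in diabetic muscle, against 1876, 2193 and 2593 in normal muscle. It was 2.50-fold lower (log2 fold change -1.31, SE 0.16, limma, adjusted p = 0.0023), although a second, dimmer probe set gave -0.36 (adjusted p = 0.33). Xirp1, an actin-binding repeat protein of muscle attachment sites, had signals of 5671, 3990 and 6096 in diabetic muscle, against 1821, 2543 and 2099 in normal muscle. It was 2.44-fold higher (log2 fold change 1.28, SE 0.19, adjusted p = 0.0052). Both passed whichever array was omitted.

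None of 29 genes of actin filament turnover and none of 26 genes that cross-link actin or tie it to membranes passed limma's test. Their medians were -0.15 and -0.13, with 21 and 18 values below 0. Among 7 other actins and actin-related genes, Acta2 alone passed, and the median was -0.041. Of 35 genes for tubulin folding and microtubule binding, Map1b, a microtubule-associated protein of growing axons, had signals of 1393, 1387 and 1850 in diabetic muscle, against 899, 664 and 708 in normal muscle (2.04-fold higher, adjusted p = 0.010). The study had picked out Map1b on these arrays too. Clasp1, which stabilizes microtubule plus ends, fell by 0.64 on the log2 scale (adjusted p = 0.049), and the remaining 33 did not pass. Of 7 regulators linked to serum response factor, Fhl2, a LIM-domain cofactor, had signals of 311, 325 and 318 in diabetic muscle, against 154, 186 and 212 in normal muscle (1.73-fold higher, adjusted p = 0.031). Its second probe set did not pass (adjusted p = 0.41), and Srf itself was at -0.60 on the log2 scale (adjusted p = 0.12). Clasp1 and Fhl2 each passed 1 time in 6 when single arrays were omitted, and neither passed without the filter or with the replicate block.

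Likeness to Acta1 and to β-actin was measured by the root mean square difference of centred log2 signals over the 6 arrays, among 8090 probe sets with 1 gene for Acta1 and 8091 for β-actin. The nearest to Acta1 were COX1, a respiratory chain subunit encoded in mitochondrial DNA (0.043), Cryab, a small heat shock protein abundant in muscle (0.060), and Ap1s1, an adaptor of vesicle transport (0.060). COX1 had signals of 32529, 30110 and 46366 in diabetic muscle, against 36993, 31230 and 37772 in normal muscle, with the same high value on diabetic replicate 3. The nearest to the β-actin 3′ control were Selenot, a selenoprotein (0.045), Ndufa3, a subunit of respiratory complex I (0.058), and Polr3k, a subunit of RNA polymerase III (0.062). In all 3 the highest signal was that of normal replicate 3, which was 1960 for Selenot, against 1110 to 1403 on the other arrays. None of these 6 passed limma's test, the lowest adjusted p being 0.21. All 6 were chosen for likeness over these same arrays. The shared high arrays and the lack of calls thus follow from the choice and are not separate observations.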

How the data were processed

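RNA from 6 muscles was hybridized to Affymetrix rat arrays, 1 per rat. The authors summarized each array with MAS 5.0, and the deposited values are linear intensities per probe set. How the arrays were scaled to each other is not given in the sources used here. Groups and replicate numbers came from the sample titles. Present and absent calls and the Bayesian analysis of the study were not repeated.

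Values were taken to log2 after the 136 below 1 had been raised to 1. From the fit 57 control probe sets were dropped, as were those whose mean signal did not exceed the 40th percentile (105.8). The remaining 9519 probe sets were fitted with lmFit and eBayes of limma 3.58.1 (R 4.3.3), with the variance trend on and p-values adjusted by Benjamini-Hochberg over all 9519. Precision is limited by the number of arrays (4 residual degrees of freedom). The labels do not say more of the replicates than their number, and each array is 1 rat per the methods. The procedure was tested on simulated data. Fold changes in linear terms are ratios of group means. Control probe sets and within-array ratios were compared with 2-sided exact permutation tests (scipy 1.17.1).

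Gene names come from the annotation of the array platform, in which 12783 probe sets had 1 gene, 312 several and 2771 none, and 12748 of the first had their gene identifier in RefSeq. A gene was represented by its brightest probe set, which gave 10411 genes, 7080 of them tested. Genes named are all members, up to 4 genes that passed per list and the 3 probe sets most like Acta1 and β-actin. Srf and the genes described among the references were named after their values were seen. The members and lists were chosen with earlier results of these data known. No signal was compared between genes as a level, except in the summed marker signals. Each of those sums is weighted towards its brightest probe sets. As alternatives, arrays were quantile normalized or scaled to 1 median, an offset of 16 or 64 was added, the filter was dropped or moved to the 60th percentile, and the trend was switched off. Array weights, a replicate block, other thresholds, gene means over probe sets and omission of single arrays were tried too.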

Additional observations from a re-analysis of the deposited data

How the results depend on the processing

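The number of arrays limits what could be detected, and intervals were wide for Tubb2a, the second set of Tubb5 and Actg1 (SE 0.25, 0.27 and 0.27). Over all probe sets, the main counts were 314 higher and 331 lower. Without the filter 200 were higher. At an adjusted p under 0.1 the counts were 562 and 585, and at an unadjusted p under 0.05 they were 1163 and 1112. When single arrays were omitted they ranged from 133 to 226 higher and from 179 to 235 lower. Division by β-actin 3′ gave 762 and 91, by GAPDH 3′ 3496 and 103, by Actg1 153 and 20, by Tubb5 87 and 1981, and by Acta1 166 lower. The cause of these moves was not tested.

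Of the 5 actin and tubulin probe sets, the number that passed stayed at 0 under every normalization, offset, filter, weighting, block and omission tried, and only an unadjusted p under 0.05 gave 1 higher and 1 lower. In the cytoskeleton lists, 7 genes were higher after quantile normalization. The lower count was 2 after scaling to the same median, 1 without the filter, 7 with the filter at the 60th percentile and 1 with no variance trend, and it ranged from 1 to 2 when single arrays were omitted. The higher count ranged from 3 to 5 there. Among the reference genes 1 was higher after quantile normalization.

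Acta1 turned to 0.019 after quantile normalization and ranged from -0.24 to 0.048 with each array left out. Under the same omissions Actg1 ranged from -0.78 to -0.17, the β-actin middle difference from -0.88 to -0.28, the coefficient of variation of β-actin 3′ from 8.37% to 25.7% and that of Actg1 from 17.9% to 45.1%. The β-actin 5′ difference ranged from -0.56 to 0.11 and Actg1 over β-actin from -0.30 to 0.0065. The log2 fold changes of Actg1, Tubb2a and both Tubb5 sets kept their sign under every alternative of the fit.

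The labels give same-numbered diabetic and normal arrays nothing in common but the number. The correlations of their deviations from the group means were 0.098, -0.20 and -0.068. With 3 arrays in each group these values cannot decide whether such arrays were processed together. With the replicate block 162 probe sets were higher and 170 lower, none of the 5 members passed, Acta2, Tuba8, Clasp1, Fhl2 and both Acta2/Actc1 sets that had passed no longer did, and in the cytoskeleton lists 3 genes were higher and 1 was lower. For the pairs of members the block gave sign-flip p-values of 1.0, 0.75, 0.25 and 0.25 in the order Acta1 over β-actin, Actg1 over β-actin, Tubb2a over Tubb5 and Tubb5 over β-actin. With so few blocks, 0.25 is the smallest p-value that the sign-flip test can give.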
